A study of Mus musculus with 4 samples.

Results

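The JNK cascade genes described here are 10 genes chosen by symbol, namely the 3 JNK genes Mapk8, Mapk9 and Mapk10, the upstream kinases Map2k4, Map2k7, Map3k1, Map3k5 and Map3k11, and the JIP scaffold genes Mapk8ip1 and Mapk8ip3. All 10 were found among the 27179 genes of the deposited FPKM values (read fragments scaled to gene length and library depth), and 8 of them had a mean FPKM of at least 0.5 over the 4 libraries and could be tested. Mapk10 and Mapk8ip1 lay under this filter.

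The libraries came from Mac-1+/c-Kit+ leukemia-initiating cells (LICs), called LSC in the labels, which were sorted from the bone marrow of mice with MLL-AF9-induced acute myeloid leukemia. There were 2 libraries labelled WT (genotype wild type) and 2 labelled KO (genotype CD274-/-, called CD274-null here), all of strain C57BL/6 and of mice labelled as 6 weeks old. In all 4, the leukemia had been started by a retrovirus that carries MLL-AF9 and YFP in Lin- fetal liver cells, so that the genotype label applies to the infected donor cells, and the irradiated C57BL/6 recipient keeps cells of its own. The study proposed that CD274 acts on LICs through JNK, and the comparison made here asks whether the RNA of the JNK cascade genes differed between the genotypes.

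JNK is a stress-activated MAP kinase that is switched on in tiers. MAP3K enzymes such as MEKK1 (Map3k1), ASK1 (Map3k5) and MLK3 (Map3k11) phosphorylate the MAP2K enzymes MKK4 (Map2k4) and MKK7 (Map2k7), and these phosphorylate JNK on a threonine and a tyrosine of its activation loop, MKK7 mainly on the threonine and MKK4 mainly on the tyrosine. JIP proteins hold kinases of the different tiers together, and active JNK phosphorylates factors such as c-Jun. JNK1 (Mapk8) and JNK2 (Mapk9) are made in most tissues, and JNK3 (Mapk10) mainly in brain, heart and testis. The activity of the pathway is set by phosphorylation, which RNA levels do not measure.

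The activation loop is shown first because it is the part of JNK on which the upstream kinases act. The coding sequences shown are from GENCODE transcripts of GRCm38, 45 bases each and 5′ to 3′, and the capitals mark the codons for threonine, proline and tyrosine, found in frame at codons 183, 183 and 251.
Mapk8 (chr14:33393003-33393011 for the capitals, minus strand, exon 6): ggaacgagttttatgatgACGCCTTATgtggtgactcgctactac
Mapk9 (chr11:49872830-49872838, plus strand, exon 6): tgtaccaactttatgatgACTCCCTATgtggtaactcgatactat
Mapk10 (chr5:102989681-102989689, minus strand, exon 7): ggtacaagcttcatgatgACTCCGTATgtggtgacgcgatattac
In this window Mapk8 shared 35 of 45 bases with Mapk9 and 36 with Mapk10. Reads of about 50 bases can still tell the JNK genes apart. Over all annotated transcripts, no stretch of 50 bases was shared between any of the 10 genes.

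The sequence that the study targeted to knock down JNK bears on which JNK gene is meant, so its best matches are shown as well. The target, 21 bases long, was searched in 141767 GENCODE transcripts and matched 1 gene exactly, Mapk8. In these lines, capitals mark bases that differ from the target.
Mapk8 (chr14:33387268-33387288, minus strand, coding, exon 9): gcaagagatttgttatccaaa
Mapk9 (chr11:49879710-49879730, plus strand, coding, exon 9): gcCagagatCtgttatcAaaa
Mapk10 (chr5:102963563-102963583, minus strand, coding, exon 10): gcCagGgatttgttGtcTaaG
The exact site was in 7 of 11 annotated Mapk8 transcripts. The best site in Mapk9 differed at 3 positions (A3C, T10C and C18A, with the target's base first and positions counted from its 5′ end), and that in Mapk10 at 5 (A3C, A6G, A15G, C18T and A21G). How far the target lowers each JNK RNA was not analysed here.

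As a check of the labels, Cd274 was at 2.80 and 0.945 FPKM in WT LICs and at 1.43 and 2.29 FPKM in CD274-null LICs, so the groups overlapped (log2 fold change 0.09, limma adjusted p = 0.955), and Cd274 does not check the labels. A value per gene does not show which exons the reads came from. The markers of the sorted cells were present in every library. Itgam, which encodes a chain of Mac-1, lay between 100 and 174, Hoxa9 between 71.3 and 75.8 and Meis1 between 35.6 and 44.6, while Kit was 6.59 in WT replicate 1 and between 16.2 and 19.5 in the others. The whole reads recovered from the FPKM values summed to between 8285538 and 10969359 per library. The summed FPKM over a list of 10 mature neutrophil genes was 42129 and 8443 in WT, against 17615 and 30600 in CD274-null. The summed FPKM of 4 Y chromosome genes was 86.0, 66.2, 0.0460 and 29.4 in the same order. Xist, which is made in female cells, was at 2.57, 51.1, 107 and 68.7 FPKM. The libraries thus also differed in RNA that depends on sex, and the part of sex in the differences between the groups was not tested. In bulk RNA, fewer cells of a type and less RNA per cell cannot be told apart. The labels do not say that the libraries came from separate mice, so p-values measure only the spread between these libraries.

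A gene is called a candidate here when its unadjusted p from limma was under 0.01 and its fold change above 1.5, the thresholds used in the study. Of the 8 tested JNK cascade genes 1 was a candidate, the scaffold gene Mapk8ip3, which was higher in CD274-null. Among all 13230 tested genes 480 were candidates, 3.63%, and 316 of these, 2.39%, were higher in CD274-null, while 164, 1.24%, were lower. This balance moved with the scaling, to 253 higher and 210 lower with quantile normalization and to 247 and 200 with equal medians. After Benjamini-Hochberg adjustment in limma, 0 of the 8 genes had an adjusted p under 0.05, against 10 of all tested genes (0.0756%), and 1 of the 8 had an unadjusted p under 0.05, against 13.7% of all. In a linear model without moderation these numbers for the 8 genes were 0 and 2, the latter being Mapk8 and Mapk8ip3. In that model 9.75% of all tested genes had an unadjusted p under 0.05. The groups did not overlap for 3 of the 8, of which 1 was higher and 2 lower in CD274-null, and over all tested genes 47.3% did not overlap. The median log2 fold change was -0.13 over the 8 genes and 0.01 over all genes tested.

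**Figure D1:**
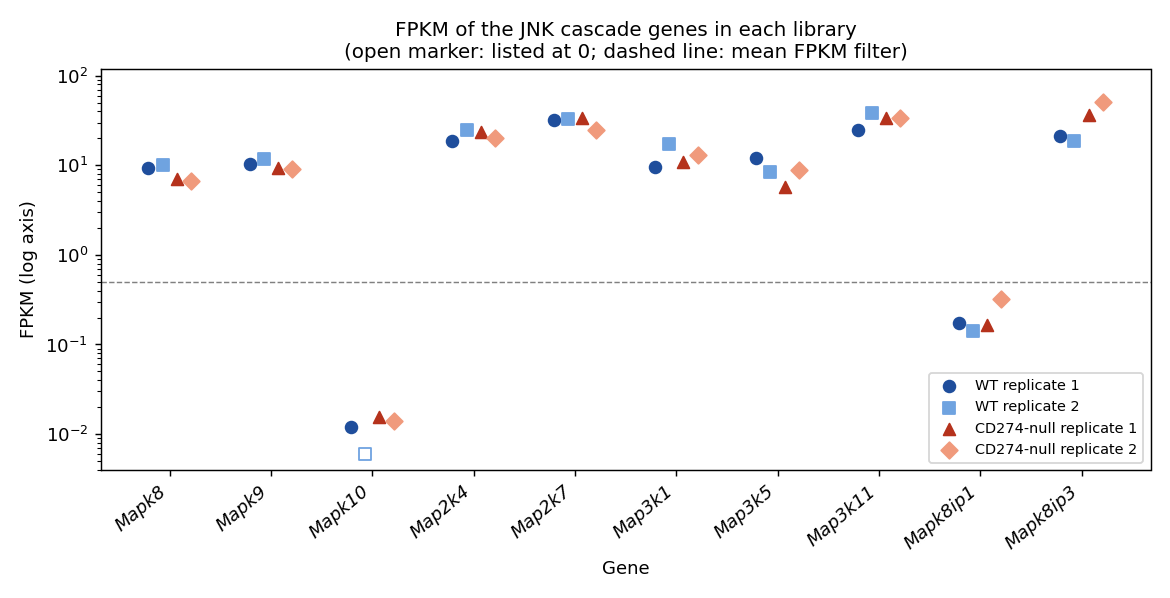
FPKM on a log axis for each of the 10 JNK cascade genes, with 1 marker per library (2 WT in blue, 2 CD274-null in red); the dashed line is the filter at a mean FPKM of 0.5. Mapk10 and Mapk8ip1 lie under the filter, and Mapk8ip3 is the gene whose CD274-null markers lie above 36 while its WT markers lie near 20.

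JNK RNA in these cells came from Mapk8 and Mapk9. Mapk8 (NCBI gene 26419, chr14:33377898-33447353, minus strand) was at 9.33 and 9.95 FPKM in WT LICs and at 6.99 and 6.70 FPKM in CD274-null LICs. Both CD274-null values lay under both WT values, as for 21.8% of all tested genes. The mean was 9.64 ± 0.440 (SD, n = 2) in WT and 6.85 ± 0.208 (SD, n = 2) in CD274-null, 71.0% of the WT mean, and the log2 fold change of -0.46 (standard error 0.26, 95% interval -1.08 to 0.16) did not pass either threshold (unadjusted p = 0.117, limma adjusted p = 0.462). In a linear model without moderation the unadjusted p of Mapk8 was 0.0127 and the adjusted p 0.492, so Mapk8 was no candidate there either. The recovered reads, not scaled for depth, were 621 and 583 in WT LICs against 356 and 384 in CD274-null LICs. Library depths relative to WT replicate 1 were 1.0, 0.8801, 0.7645 and 0.8608 in the same order.

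Mapk9 (NCBI gene 26420, chr11:49846728-49886421, plus strand) was at 10.3 and 11.8 FPKM in WT LICs and at 9.44 and 9.19 FPKM in CD274-null LICs. The groups again lay apart, by less than for Mapk8. Its log2 fold change was -0.23 (standard error 0.25, 95% interval -0.83 to 0.37, limma adjusted p = 0.704), with a CD274-null mean at 84.3% of the WT mean. It was -0.33 without WT replicate 1 and -0.13 without WT replicate 2.

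Mapk10 (NCBI gene 26414, chr5:102908547-103212604) rested on 1 read in WT replicate 1, 0 in WT replicate 2, and 1 in each CD274-null library, at most 0.0157 FPKM. The count of 0 allows up to 0.0409 FPKM (3 reads, counting error only). JNK3 RNA was thus close to or under detection in both genotypes at this depth.

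On the per-length scale of FPKM, Mapk8 made up 47.6% and 45.7% of the summed level of the JNK genes in WT LICs against 42.5% and 42.1% in CD274-null LICs. The difference of the means was -4.31 percentage points, and the exact two-sided permutation test over the libraries gave p = 0.333, the smallest value that 2 against 2 libraries can give. The summed FPKM of the JNK genes was 19.6 and 21.8 in WT LICs against 16.5 and 15.9 in CD274-null LICs.

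The MAP2K genes, whose products phosphorylate JNK directly, overlapped between the genotypes. Map2k4 (NCBI gene 26398, chr11:65688244-65788359, minus strand), which encodes MKK4, was at 18.8 and 24.9 FPKM in WT LICs and at 23.3 and 20.1 FPKM in CD274-null LICs. The CD274-null values lay between the WT values. Its log2 fold change was 0.00 (standard error 0.24, 95% interval -0.59 to 0.59, limma adjusted p = 1.0).

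Map2k7 (NCBI gene 26400, chr8:4238740-4247897, plus strand), which encodes MKK7, had 31.6 and 32.9 in WT LICs against 33.4 and 24.6 in CD274-null LICs. CD274-null replicate 2 alone was low, and CD274-null replicate 1 was the highest of the 4. The log2 fold change was -0.17 (standard error 0.24, 95% interval -0.74 to 0.41, limma adjusted p = 0.790). Without CD274-null replicate 2 it was 0.05. In GENCODE 1349 of the 3829 exon bases of Map2k7 also belong to the annotated gene Gm49320 on the same strand, so the authors' counting could have split these reads.

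Of the summed level of the MAP2K genes, Map2k4 made up 37.4% and 43.0% in WT LICs against 41.1% and 44.9% in CD274-null LICs (exact two-sided permutation test, p = 0.667). MKK7 RNA was therefore the more abundant in each library.

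The MAP3K genes varied more between the WT libraries than between the genotypes. Map3k1 (NCBI gene 26401, chr13:111746428-111818269), which encodes MEKK1, was at 9.48 and 17.3 FPKM in WT LICs and at 10.9 and 13.0 FPKM in CD274-null LICs. The WT libraries held the lowest and the highest value. The log2 fold change was -0.10 (standard error 0.34, 95% interval -0.92 to 0.72, limma adjusted p = 0.921). It was -0.51 without WT replicate 1 and 0.32 without WT replicate 2.

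Map3k11 (NCBI gene 26403, chr19:5688411-5702865), which encodes MLK3, a kinase that binds JIP scaffolds, had 24.5 and 38.5 in WT LICs against 34.1 and 34.0 in CD274-null LICs. As for Map3k1, WT replicate 1 was the lowest and WT replicate 2 the highest library. The log2 fold change was 0.14 (standard error 0.27, 95% interval -0.51 to 0.80, limma adjusted p = 0.847), and it turned to -0.09 with each library corrected for GC content. Its exons overlap those of Pcnx3 on the opposite strand by 89 bases and those of AC134563.1 by 430 bases, and TruSeq v2 libraries do not mark the strand.

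Map3k5 (NCBI gene 26408, chr10:19934101-20142750), which encodes ASK1, a kinase held inactive by thioredoxin, had 12 and 8.45 in WT LICs against 5.79 and 8.83 in CD274-null LICs. The order of the WT libraries was the reverse of that for Map3k1 and Map3k11, and CD274-null replicate 2 lay between the WT values. The log2 fold change was -0.47 (standard error 0.33, 95% interval -1.26 to 0.33, limma adjusted p = 0.553), as large as that of Mapk8 with a wider spread. It ran from -0.75 to -0.18 with each library left out in turn.

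WT replicate 1, lowest for Map3k1 and Map3k11 and highest for Map3k5, had the highest summed FPKM of the 10 neutrophil markers, and WT replicate 2 the lowest (42129 and 8443). Most of this sum is S100a8 (14524, 3043, 6114 and 10624 in WT and then CD274-null) and S100a9 (16802, 3590, 6656 and 11155). Ltf, Camp and Ly6g were highest in CD274-null replicate 2 and Mmp9 was lowest in CD274-null replicate 1. The part of neutrophil RNA in the spread of these kinases was not tested. The summed FPKM of Map3k1, Map3k5 and Map3k11 was 46.0 and 64.3 in WT LICs against 50.8 and 55.8 in CD274-null LICs.

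**Figure D2:**
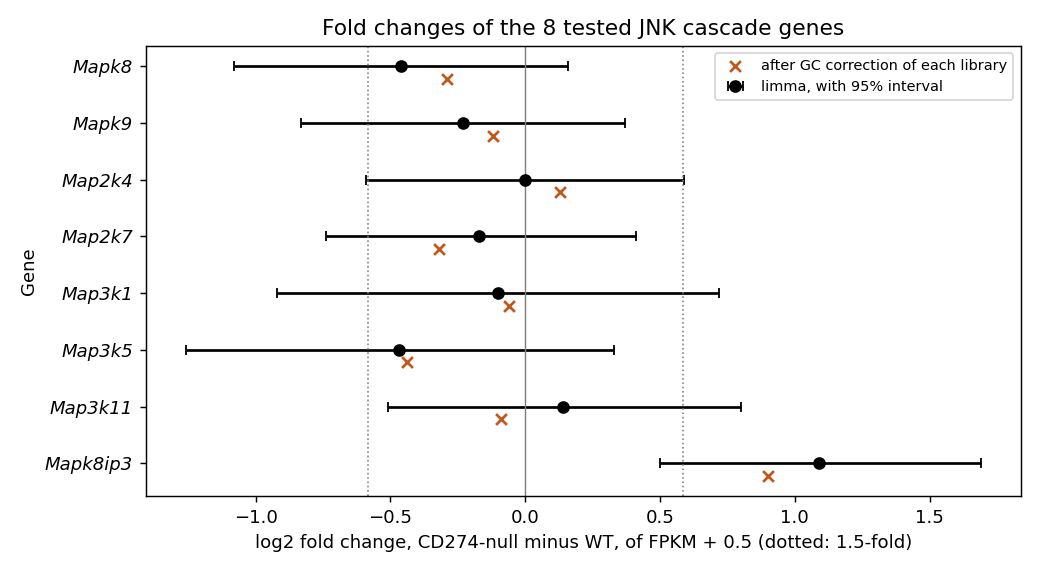
Log2 fold change (CD274-null minus WT, on log2(FPKM + 0.5)) of the 8 tested JNK cascade genes, with 95% intervals from limma as bars and the value after GC correction as crosses; dotted lines mark a 1.5-fold change. The intervals of 7 genes include 0, and that of Mapk8ip3 runs from 0.50 to 1.69.

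Mapk8ip3 (NCBI gene 30957, chr17:24897506-24936977, minus strand) encodes JIP3, a scaffold that binds JNK and its upstream kinases and also links cargo to kinesin. It was at 21.2 and 18.5 FPKM in WT LICs and at 36.6 and 50.2 FPKM in CD274-null LICs. Both CD274-null values lay above both WT values, as for 25.6% of all tested genes, and the CD274-null libraries also differed from each other. The mean was 19.9 ± 1.91 (SD, n = 2) in WT and 43.4 ± 9.60 (SD, n = 2) in CD274-null, 2.18 times the WT mean, from 1377, 1058, 1815 and 2801 recovered reads. The log2 fold change was 1.09 (standard error 0.24, 95% interval 0.50 to 1.69, limma unadjusted p = 0.00388), and it did not pass adjustment over all genes (adjusted p = 0.254, with 0.205 to 0.954 over the alternatives).

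The call of Mapk8ip3 was lost when any of 3 libraries was left out. Without WT replicate 2, CD274-null replicate 1 or CD274-null replicate 2, the unadjusted p from limma was 0.0161, 0.0128 and 0.0443, with log2 fold changes of 1.0, 1.32 and 0.87. Without WT replicate 1 it was 0.00799. In a linear model without moderation the p was 0.0465, so that Mapk8ip3 was not a candidate there. Its direction was the same in 15 of 15 alternatives, many of which could not change it. The filter, trend, moderation and block leave the fold change as it is. Groups that do not overlap keep their direction when a library is left out. Of all tested genes, candidates made up 3.47% without WT replicate 1, 4.79% without WT replicate 2, 1.78% without CD274-null replicate 1, 1.11% without CD274-null replicate 2 and 1.28% without moderation. They made up 3.35% without the trend, 3.98% with the replicate number as a block and 2.60% with the block and GC correction.

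Annotated exons of Mapk8ip3 in GENCODE overlap its neighbours, by 1557 of 14558 bases with Eme2 on the same strand, and by 1309 bases with Mrps34 and 577 with Nme3 on the opposite strand. In RefSeq, whose gene numbers the files use, the gene spans overlap by 26 bases, with Nme3. The FPKM of Eme2 was 12 and 7.75 in WT LICs against 9.66 and 9.31 in CD274-null LICs, and that of Mrps34 was 30.6, 23.9, 32.8 and 30, so both overlapped between the groups. Nme3 was higher in CD274-null (13.6 and 15.9 in WT LICs against 20.8 and 28.9 in CD274-null LICs, log2 fold change 0.72, limma unadjusted p = 0.0309 and adjusted p = 0.333). The part of shared reads in the Mapk8ip3 difference was not tested.

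Markers of other cell types also differed between the libraries. Of 8 plasma cell markers 3 were tested, and 2 of these, Jchain (0.370, 0.514, 12.3 and 10.5 FPKM) and Derl3 (0.712, 0.294, 0.931 and 0.902 FPKM), had both CD274-null values above both WT values, against 25.6% of all tested genes. Of the 8, 5 lay under 1 FPKM in every library, among them Sdc1 and Prdm1. The summed FPKM of the list, most of which is Xbp1, was 178 and 68.1 in WT LICs against 148 and 119 in CD274-null LICs. Of 10 T and NK cell markers, 8 lay under 1 FPKM in every library, and the summed FPKM, carried by Nkg7, was 33.2 and 13.7 in WT LICs against 71.2 and 87.4 in CD274-null LICs. Of 10 macrophage and dendritic cell markers 7 were tested, of which 5 had a log2 fold change above 0 and 2 below (median 0.31). The 10 markers, 3 of which lay under 1 FPKM in every library, summed to 150 and 156 in WT LICs against 104 and 113 in CD274-null LICs. Most of this sum is Vcam1 (117, 92.3, 53.7 and 59.8), a candidate that was lower in CD274-null (limma unadjusted p = 0.00704, and 0.0207 after GC correction, where it was no candidate). Jchain (log2 fold change 3.65, limma adjusted p = 0.0369) and Nkg7 (log2 fold change 1.93, limma unadjusted p = 0.00532) were candidates that were higher in CD274-null. After GC correction the limma adjusted p of Jchain was 0.0611. In a linear model without moderation the unadjusted p of Nkg7 was 0.12, so it was no candidate there. Of 8 erythroid markers in the files 5 lay under 1 FPKM in every library, and the sum was 2.92 and 55.7 in WT LICs against 4.85 and 0.589 in CD274-null LICs. The part of these cells in the Mapk8ip3 difference was not tested.

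The other JIP gene, Mapk8ip1 (NCBI gene 19099, chr2:92383671-92401346), encodes JIP1, a scaffold that holds MLK3, MKK7 and JNK. Its FPKM was 0.175 and 0.142 in WT LICs against 0.163 and 0.319 in CD274-null LICs, from 7, 5, 5 and 11 reads. The groups overlapped, and the gene was not tested. Mapk8ip2, listed at 0 in WT replicate 2 and CD274-null replicate 1, had at most 0.0568. Spag9, which encodes JIP4, had 12.4 and 17.7 in WT LICs against 12.9 and 11.1 in CD274-null LICs (log2 fold change -0.30, limma adjusted p = 0.650). JIP3 and JIP4 were thus the JIP scaffolds with RNA above the filter. Mapk8ip3 made up 62.8% and 50.9% of the summed JIP level in WT and 73.8% and 81.5% in CD274-null (exact two-sided permutation test, p = 0.333, the smallest possible).

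By level, 8 of the 10 genes lay above the filter and 2 far under them. In WT the order of the mean FPKM was Map2k7 (32.3), Map3k11 (31.5), Map2k4 (21.8), Mapk8ip3 (19.9), Map3k1 (13.4), Mapk9 (11), Map3k5 (10.2), Mapk8 (9.64), Mapk8ip1 (0.158) and Mapk10 (0.006). Neighbours in this order overlapped in their ranges except Mapk8ip3 against Map3k1, Mapk8 against Mapk8ip1 and Mapk8ip1 against Mapk10. In CD274-null Mapk8ip3 (43.4) came first, before Map3k11 (34.0), Map2k7 (29.0) and Map2k4 (21.7), and the ranges of Map3k5 (7.31) and Mapk8 (6.85) overlapped. The MAP2K genes and Map3k11 had higher mean levels than either JNK gene in both genotypes. Over all 13230 tested genes, 40.5% had a lower mean FPKM than Mapk8 and 76.5% a lower one than Map3k11.

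The fold changes rose weakly with GC content (Spearman correlation 0.271), and the JNK cascade genes span much of its range. Across 11435 tested genes that matched a GENCODE transcript, the median log2 fold change rose from -0.16 in the decile of lowest GC to 0.23 in that of highest GC. Mapk8 (40.1% GC) lies in the lowest decile, and 23.9% of the genes there had a lower log2 fold change than Mapk8, against 15.9% of all tested genes. Mapk8ip3 (57.4% GC) lies in the ninth, where 95% of the genes had a lower log2 fold change, against 95.2% of all. With each library corrected for GC content, the log2 fold change was -0.29 for Mapk8 (limma unadjusted p = 0.258) and -0.12 for Mapk9. It was 0.90 for Mapk8ip3 (limma unadjusted p = 0.00696, adjusted p = 0.349). Map2k7 moved away from 0, from -0.17 to -0.32, and Map2k4 from 0.00 to 0.13. Mapk8ip3 remained a candidate after this correction, where 2.84% of 11435 tested genes were candidates, and was none with the replicate block added to it (log2 fold change 0.90, limma unadjusted p = 0.0119).

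**Figure D3:**
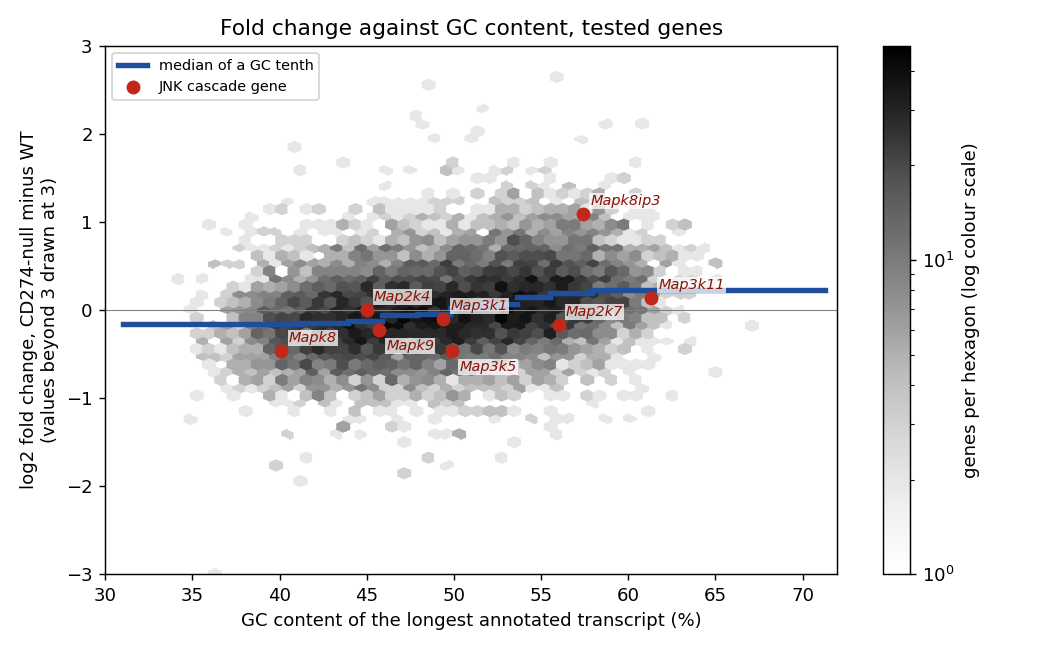
Log2 fold change against the GC content of the longest annotated transcript for 11435 tested genes (grey hexagons, log colour scale), with the median of each GC decile as blue lines and the 8 tested JNK cascade genes in red. The medians climb from -0.16 to 0.23, Mapk8 lies at the low-GC end and Mapk8ip3 far above the median of its decile, which is 0.19.

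The genes whose log2(FPKM + 0.5) ran most like that of Mapk8 over the 4 libraries, by the smallest root mean square difference after centring among 9278 genes of a mean FPKM of at least 5, were Msmo1 (0.0147), Gm10175 (0.0148) and Cul3 (0.0149). For Mapk8ip3 they were Syvn1 (0.0399), Gadd45gip1 (0.0522) and Gnal (0.0547). With 4 libraries such likeness is a description only.

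**Figure D4:**
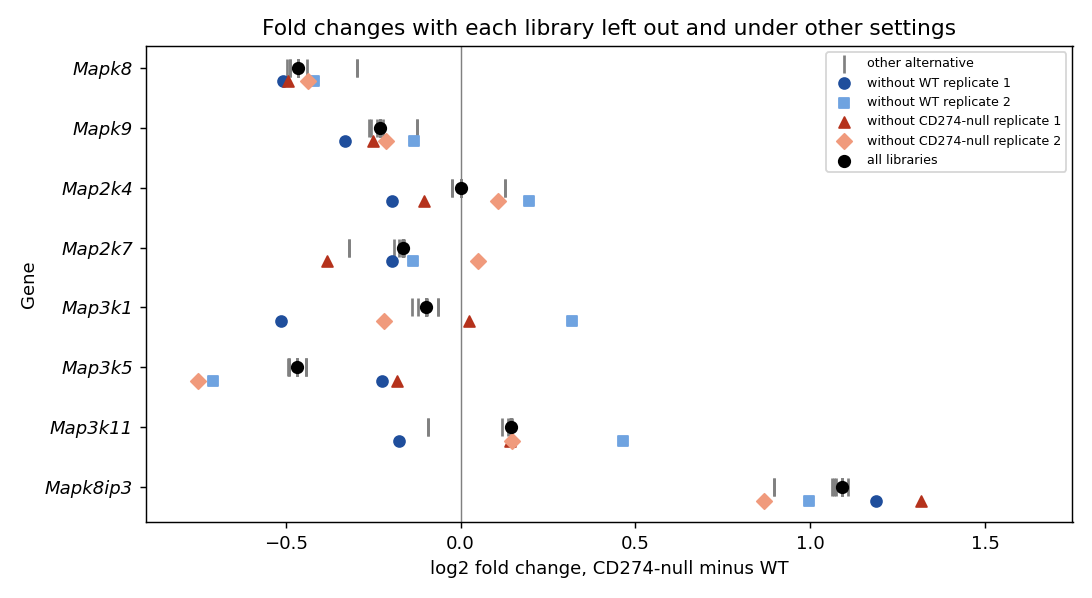
Log2 fold change of the 8 tested JNK cascade genes with all 4 libraries (black), with each library left out (coloured by the library left out) and under the other alternatives (grey ticks). Mapk8ip3 stays between 0.87 and 1.32 and Mapk8 between -0.51 and -0.29, while Map2k4, Map2k7, Map3k1 and Map3k11 have values on both sides of 0.

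The wider JNK pathway was examined in 73 further genes listed by role, of which 64 were tested and 4 were candidates, Mink1, Wdr62 and Trp53 higher and Traf6 lower in CD274-null. Of these 64 genes, 20 had both CD274-null values above and 15 below both WT values, against 25.6% and 21.8% of all tested genes, and the median log2 fold change was -0.07. The 4 candidates were 6.25% of the 64 genes, against 3.63% of all tested genes. The candidates had adjusted p between 0.251 and 0.274 from limma, and none passed adjustment.

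Among 13 tested further MAP3K and TAO kinases 0 were candidates, 2 had an unadjusted p under 0.05 from limma (Map3k6 and Map3k10), against 13.7% of all tested genes, and the median log2 fold change was -0.29. Map3k3, which encodes MEKK3 and was the most abundant of them, had 56.2 and 72 in WT LICs against 47.5 and 39.1 in CD274-null LICs, a log2 fold change of -0.56 (limma adjusted p = 0.366). Taok3 had 36.7 and 48.4 in WT LICs against 35.7 and 30.4 in CD274-null LICs (log2 fold change -0.35, limma adjusted p = 0.537). Both CD274-null values lay under both WT values for 5 of the 13 genes, Map3k3 and Taok3 among them, and above them for 4, against 21.8% and 25.6% of all tested genes. Map3k9, which encodes MLK1, was 12.9 in WT replicate 1 and between 1.71 and 4.06 in the other libraries.

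Of 21 tested MAP4K kinases, GTPases and adaptors, 2 were candidates and 4 had an unadjusted p under 0.05 from limma, against 3.63% and 13.7% of all tested genes. Mink1, a MAP4K that acts above JNK, was at 6.11 and 7.13 FPKM in WT LICs and at 16.6 and 15.8 FPKM in CD274-null LICs. Replicates of a genotype lay close together here and the groups far apart (log2 fold change 1.23, SE 0.25, limma unadjusted p = 0.00225 and adjusted p = 0.251, and 1.03 after GC correction). Mink1 was no candidate without CD274-null replicate 1 (limma unadjusted p = 0.0363), without CD274-null replicate 2 (0.0312) or with GC correction and the replicate block (0.0118). Traf6, the adaptor that links Toll-like and interleukin-1 receptors to TAK1, had 18.5 and 19.3 in WT LICs against 10.9 and 7.57 in CD274-null LICs. Its CD274-null mean was 48.8% of the WT mean (log2 fold change -1.02, SE 0.27, limma unadjusted p = 0.00847 and adjusted p = 0.274), and it was no candidate with any of the 4 libraries left out or after GC correction (unadjusted p = 0.0102). The most abundant of the list were Rac2 (502 and 427 in WT LICs against 503 and 518 in CD274-null LICs), the blood-cell Rac GTPase, and Gadd45b (193 and 126 in WT LICs against 220 and 440 in CD274-null LICs, log2 fold change 0.99, limma adjusted p = 0.350), which binds MKK7.

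Of 9 tested further scaffolds and JNK-binding proteins 1 was a candidate, against 3.63% of all tested genes. Wdr62, which encodes a JNK-binding spindle pole protein, had 7.23 and 6.81 in WT LICs against 13.8 and 15.2 in CD274-null LICs (log2 fold change 0.99, SE 0.25, limma unadjusted p = 0.00630 and adjusted p = 0.270). It was no candidate after GC correction (0.83, unadjusted p = 0.0133) or with any of the 4 libraries left out. Flna, an actin crosslinker that also binds MKK4, was the most abundant of the list with 320 and 328 in WT LICs against 212 and 256 in CD274-null LICs (log2 fold change -0.48, limma adjusted p = 0.414). Arrb2, which can scaffold JNK3, had 176 and 119 in WT LICs against 131 and 139 in CD274-null LICs.

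The p38 kinases share MAP3K enzymes with JNK. Of 6 listed kinases 4 were tested, 0 were candidates and 1, Map2k6, had an unadjusted p under 0.05 from limma (0.0386), against 13.7% of all tested genes. Mapk14, which encodes p38α, had 69.8 and 101 in WT LICs against 114 and 97.1 in CD274-null LICs, and its activator Map2k3 had 44.5 and 49.6 in WT LICs against 60.9 and 60.7 in CD274-null LICs (log2 fold change 0.37, limma adjusted p = 0.455). Of these 4, the MAP2K genes Map2k3 and Map2k6 had groups that did not overlap, against 47.3% of all tested genes. The groups of the p38 genes Mapk13 and Mapk14 overlapped.

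Among 6 tested phosphatases that act on JNK or its relatives, 0 were candidates and 0 had an unadjusted p under 0.05 from limma, against 3.63% and 13.7% of all tested genes. Dusp1 had 196 and 201 in WT LICs against 143 and 328 in CD274-null LICs, and Dusp2 had 103 and 88.7 in WT LICs against 101 and 350 in CD274-null LICs. CD274-null replicate 2 was the high library for both. Dusp16, a phosphatase with a preference for JNK, was 3.61 in WT replicate 1 and between 0.443 and 0.788 in the others.

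Of 11 tested JNK substrates 1 was a candidate and 2 had an unadjusted p under 0.05 from limma, against 3.63% and 13.7% of all tested genes. The candidate was Trp53, with 31.7 and 31.4 in WT LICs against 66.2 and 54.9 in CD274-null LICs (log2 fold change 0.92, SE 0.21, limma unadjusted p = 0.00417 and adjusted p = 0.255). With each of the 4 libraries left out it was not a candidate (unadjusted p from 0.0108 to 0.04). Jun, the substrate after which JNK is named, had 491 and 444 in WT LICs against 127 and 650 in CD274-null LICs, so the CD274-null libraries held both the lowest and the highest value (log2 fold change -0.70, SE 0.70, limma adjusted p = 0.684). Mcl1, a survival factor, had 173 and 128 in WT LICs against 117 and 155 in CD274-null LICs. Without CD274-null replicate 2 the candidates among the 64 further genes were Jun (-1.87) and Jund (-1.65), both lower, and without CD274-null replicate 1 the candidate was Dusp2 (1.87), higher. Without WT replicate 1 they were Mink1 (1.13), Itch (-1.69) and Hsf1 (0.94), and without WT replicate 2 Mink1 (1.34), Map3k9 (-1.65) and Dusp16 (-2.04).

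Ccnd2, which encodes Cyclin D2 and is the output the study proposed for JNK, had 4.78 and 4.82 in WT LICs against 1.45 and 0.661 in CD274-null LICs (log2 fold change -1.82, limma unadjusted p = 0.00329 and adjusted p = 0.251). It was a candidate, also after GC correction, and was none in 4 of 14 alternatives, namely without moderation and without WT replicate 1, WT replicate 2 or CD274-null replicate 2.

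**Figure D5:**
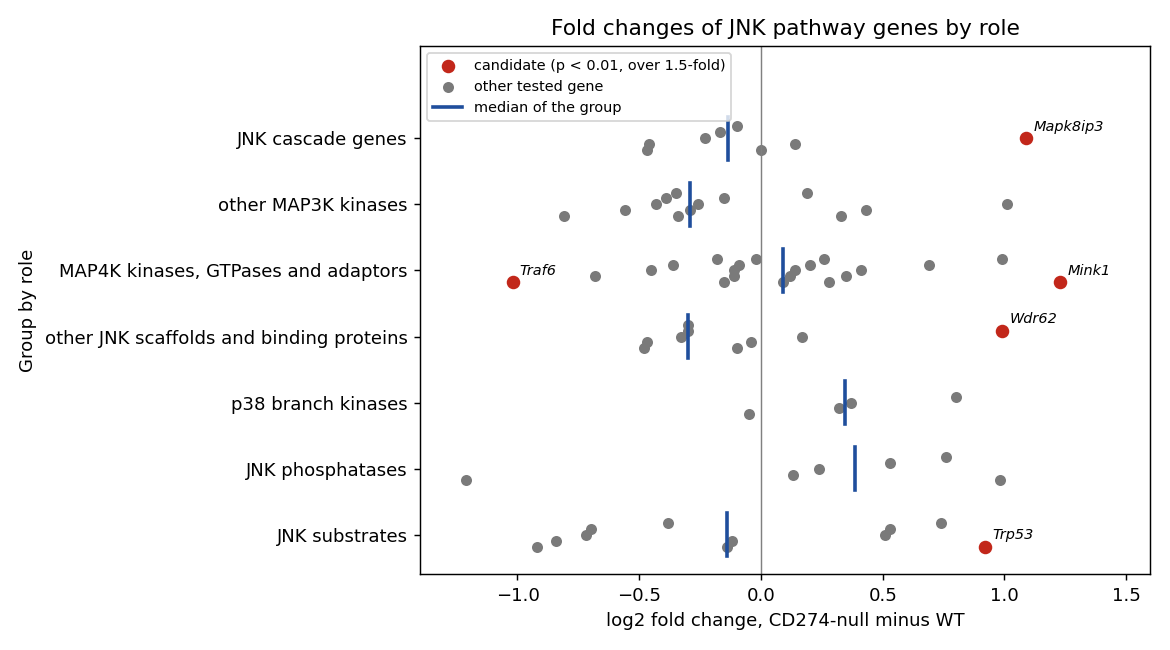
Log2 fold change (CD274-null minus WT) of the tested JNK pathway genes by role, 1 point per gene with candidates in red and named, and the median of each group as a blue line. The medians lie between -0.30 and 0.38, and candidates appear in 4 of the 7 groups.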

How the data were processed

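RNA of sorted LICs was sequenced in 4 libraries, 2 WT and 2 CD274-null. The FPKM values, on a linear scale, were made and deposited by the authors from TruSeq v2 libraries read on a HiSeq2500 and aligned to GRCm38. The submitters' processing notes name CASAVA 1.8.2 and TopHat2 2.0.12. The program, gene lengths and strand setting behind FPKM are not given in the sources used here. The authors' scaling already corrects for depth. Genes were named by NCBI gene number through RefSeq (GRCm38.p6).

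Values were compared as log2(FPKM + 0.5) by limma (version 3.58.1, R 4.3.3) with a mean-variance trend and no covariates. The 13230 genes averaging 0.5 FPKM or more were tested, with Benjamini-Hochberg adjustment over all of them. This scale understates the change of low genes. Whole reads, recovered from ratios of FPKM between libraries (within 2e-04 of a read, 100% of 17083 genes above 0 in at least 2 libraries), are lower bounds where the 4 values share a factor. By annotated length this holds for Map3k1 and Map3k5. The fit was tested on simulated counts with a fixed dispersion and no GC effect, which does not show how the fit behaves on these libraries. GC content was that of the longest GENCODE M21 transcript, corrected by loess (span 0.3). Exact permutation tests, sequence searches and plots were made in Python 3.11.15.

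The members and lists were chosen with earlier results of these data known. Named were all members, candidates of the pathway lists, the 2 most abundant genes of each list, check genes and, for Mapk8 and Mapk8ip3, the 3 most similar genes. Other genes, such as Map3k9, Dusp16, Jund, Itch, Hsf1, Spag9, single markers and the neighbours of Mapk8ip3, were named after their values were seen. Alternatives were a pseudocount of 1 or 0.1, no filter or a mean FPKM of at least 5, quantile or median scaling, no trend, no moderation, the replicate number as a block, GC correction with and without that block, and leaving out each library. The B cell marker list is not reported here.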

Additional observations from a re-analysis of the deposited data

How the results depend on the processing

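The number of candidates among all genes was 480. It was 170 without moderation and 297 with GC correction and replicate block, and from 147 to 634 with each library left out. The 1 candidate among the JNK cascade genes, Mapk8ip3, became 0 without moderation and with GC correction and replicate block, and the number ran from 0 to 1 with each library left out. The 4 candidates among the further pathway genes became 2 without trend, 2 without moderation, 2 with the replicate block, 2 with GC correction and 0 with GC correction and replicate block, and the number ran from 1 to 3 with each library left out, where of the 4 genes Mink1 was a candidate without WT replicate 1 or 2 and the other calls were of different genes. With all libraries kept, the 10 genes with an adjusted p under 0.05 became 0 without moderation or with GC correction and 21 with the replicate block. The replicate block gave 526 candidates in all. Samples with the same replicate number did not deviate together (r = -0.0151 across 13230 genes), and the labels give the number no further meaning. Mapk8, Mapk9, Map3k5 and Mapk8ip3 kept their direction in 15 of 15 alternatives. For Mapk8, Mapk9 and Mapk8ip3, whose groups did not overlap, leaving out a library could not change it. The filter, trend, moderation and block could not change it for any member. Among the members that changed direction, Map2k4 (0.00) was -0.02 with quantile scaling and -0.02 with equal medians. It ran from -0.20 to 0.20 with each library left out. Map3k11 (0.14) was -0.09 with GC correction, -0.09 with GC correction and replicate block, and ran from -0.18 to 0.47 with a library left out. Map2k7 ran from -0.38 to 0.05 and Map3k1 from -0.51 to 0.32 with a library left out. None of these members was a candidate under any alternative. Where a library is left out, the lone library of its group is assumed to vary like the others. Other causes of these shifts were not tested. Mapk10 and Mapk8ip1 rest on too few reads to show any difference.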
